A study of Arabidopsis thaliana with 24 samples.

Results

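Cyclins and cyclin-dependent kinases (CDKs) drive plant cells through the division cycle. The MCM helicase and the sliding clamp PCNA serve the copying of DNA in its S phase. Transcripts of these genes were compared in sorted root epidermis cells of Arabidopsis thaliana from 8 mutant lines. The members are 38 genes listed by locus code: A, B and D cyclins, CDKA and CDKB kinases, KRP inhibitors of CDKs, the MCM subunits, PCNA, an activator of the anaphase-promoting complex and the cytokinesis syntaxin KNOLLE. Of these, 33 were among the 21440 genes measured, and all 33 are described. CYCB1;2 (AT5G06150_at), CDKB1;1 (AT3G54180_at), CDKB1;2 (AT2G38620_at), MCM6 (AT5G44635_at) and CDC20.1 (AT4G33270_at) were not analysed here.

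With 3 arrays for each, the lines were single mutants of the alleles wer-1, myb23-1, gl3-1, egl3-1, cpc-1, try-82 and ttg2-1, and 1 labelled as the double mutant of cpc-1 and ttg2-1. Every line also carried WER::GFP, a reporter that is active in developing epidermis and in the lateral root cap, and the GFP-positive cells of seedlings aged 5 days were sorted from root ends cut about 2 mm from the tip. The sorted cells therefore mix dividing, elongating and differentiating stages, and wild type was not analysed here. WER and MYB23 are R2R3 MYB factors and GL3 and EGL3 bHLH factors of non-hair fate, CPC and TRY are single-repeat MYB proteins of hair fate, and TTG2 is a WRKY factor.

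In the root tip, D cyclins bind CDKA in G1, A3 cyclins act around S phase, and A1, A2 and B cyclins act from G2 to mitosis, together with the plant-specific B-type kinases. KRP proteins bind and inhibit CDKs. When root cells stop dividing they enter the endocycle, in which DNA is still copied but mitosis is skipped, so transcripts of S phase and of mitosis need not go together in a tissue of mixed stages. Cells in hair positions are known to divide more often than cells in non-hair positions.

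All levels are log2 values from robust multi-array averaging (RMA) as deposited. Over all genes and arrays these ran from 2.01 to 13.6, with a lower quartile of 4.19. Errors of levels are SDs over n = 3 arrays, and errors of differences are SEs of the linear model. With 3 arrays per line the precision is limited, and each p-value reflects the spread among replicate arrays. A gene was called at an adjusted p under 0.05 over all 21440 genes. Array 3 of cpc and array 3 labelled cpc ttg2 stood apart from the rest by their correlation with the other arrays. Some results are also given without them. The transcripts of the mutated genes check the labels only in part, because an allele can leave the level of its own transcript high. TTG2 averaged 4.35 ± 0.44 in ttg2, 8.25 ± 0.54 on the arrays labelled cpc ttg2, and 6.71 over the 18 arrays of the 6 lines without a ttg2 label, where it ran from 5.18 to 7.62, so the arrays labelled cpc ttg2 went against the low level of the ttg2 line. TRY was highest in try (10.71, against 7.09 to 9.57), and EGL3 read 7.36 in egl3, against 5.19 to 7.59. MYB23 read 7.40 in myb23, against 6.77 to 9.28, and WER 10.99 in wer, against 10.43 to 11.66. CPC read 9.88 in cpc and 9.98 on the arrays labelled cpc ttg2, against 9.85 to 10.92. No level of GL3 is given, so the gl3 label has no such check here.

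Most cell cycle transcripts were lowest on the arrays labelled cpc ttg2. These held the lowest line mean for 28 of the 33 members, among them all 11 mitotic and all 7 S phase genes, whereas they held it for 27.8% of all genes. For 8 members, 3 arrays labelled cpc ttg2 lay below all 21 others, against 5.83% of all genes. A test over the 8 lines called 16 of the 33 members, against 27% of all genes. Over the 7 lines without the arrays labelled cpc ttg2 it called 2 members, the inhibitors KRP1 and KRP2, against 4.55% of all genes. At an unadjusted p under 0.05 these counts were 25 (75.8%, against 40.5% of all genes) and 7 (21.2%, close to the share of all genes, 4316 of 21440). Without the 2 arrays that stood apart the adjusted counts were 8 and 0, and without array 1, 2 or 3 labelled cpc ttg2 the test over 8 lines called 9, 9 and 8. With the replicate number as a block the test over 7 lines called 1. In such samples fewer cells of a stage and less RNA per cell cannot be told apart.

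**Figure D1:**
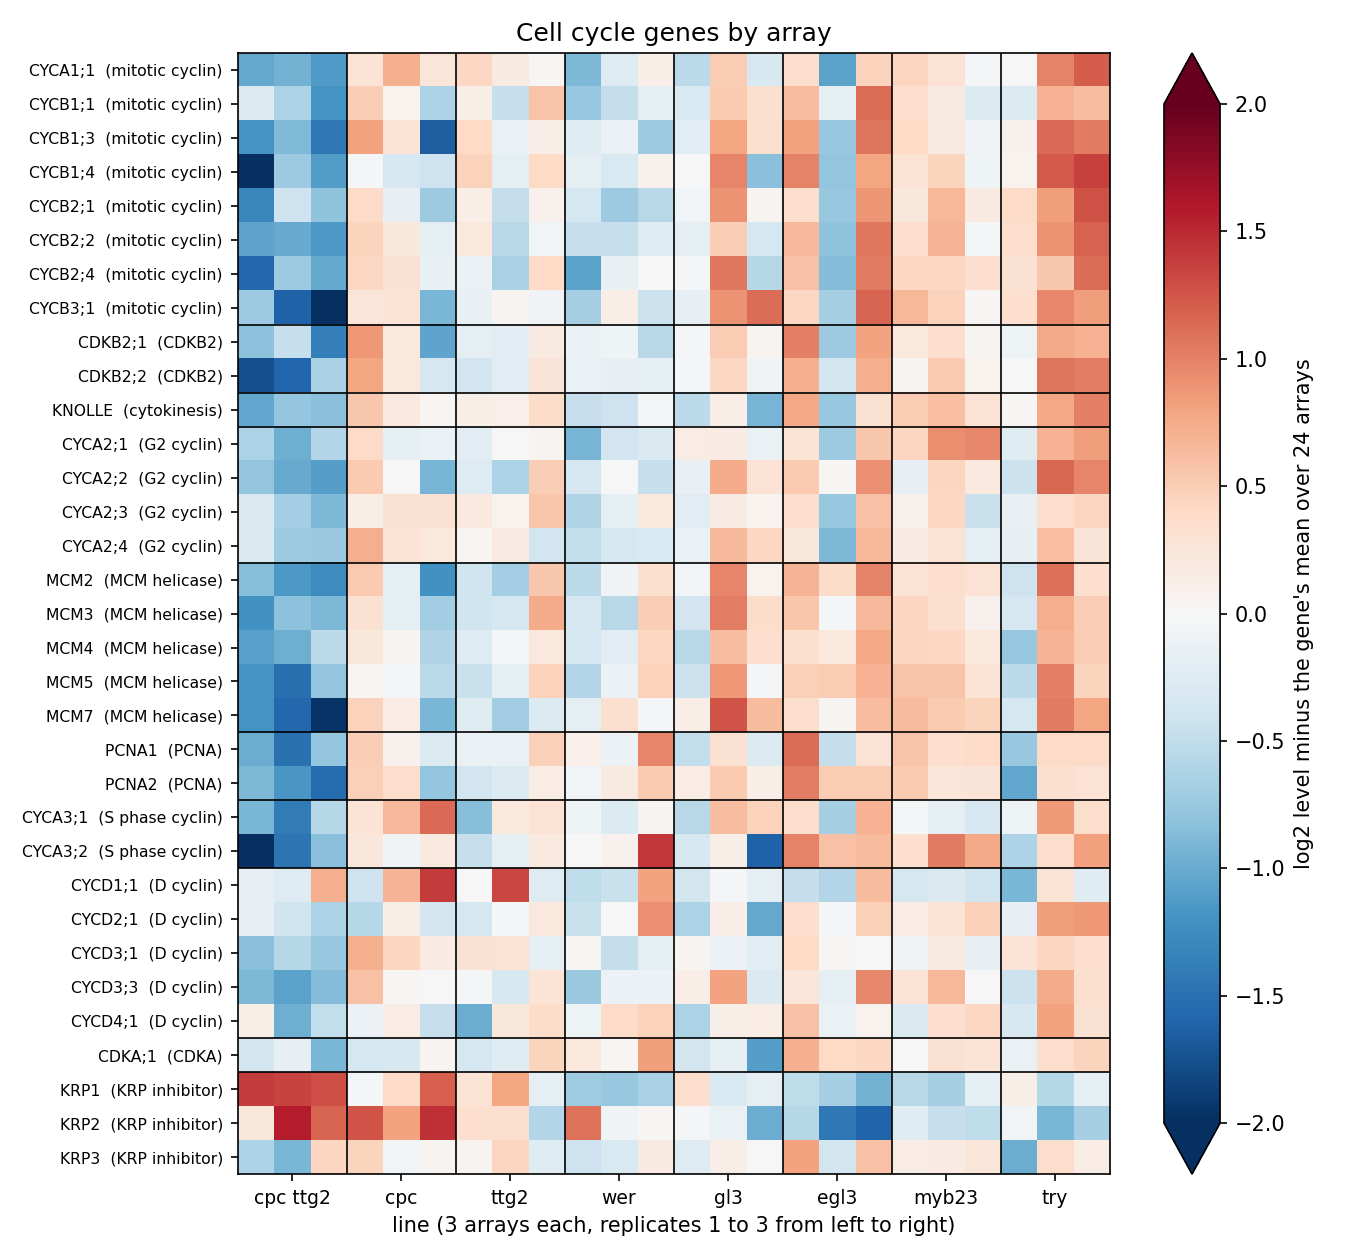
Log2 level of each of the 33 measured genes (rows, grouped by role) on each of the 24 arrays (columns, replicates 1 to 3 of each line), drawn as the deviation from the gene's mean over all arrays. The 3 columns labelled cpc ttg2 are low for most rows and high for KRP1 and KRP2, and single arrays such as egl3 replicate 2 and cpc replicate 3 are low for many mitotic genes.

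Other values moved with these low transcripts. On the arrays labelled cpc ttg2 the median over all genes was 6.49 ± 0.03, against line means of 6.68 to 6.83. The 25S ribosomal RNA control averaged 11.08 ± 0.19, against 8.84 to 10.49 in the other lines, and the actin control, read as its 3' minus its 5' probe set, averaged 5.79 ± 0.40, against 4.78 to 5.41. By array the 25S control overlapped, with 10.86 to 11.24 on the arrays labelled cpc ttg2, 11.35 on array 2 of egl3 and 11.01 on array 2 of ttg2. Array 3 of gl3 had an actin value of 6.09, above 2 of the 3 arrays labelled cpc ttg2. The GAPDH control, also read as 3' minus 5', averaged 1.67 ± 0.13 on the arrays labelled cpc ttg2. It averaged 1.94 ± 0.72 in gl3 and 0.99 to 1.09 in the other lines. By array it read 1.53 to 1.78 on the arrays labelled cpc ttg2, within the 1.52 to 2.78 of gl3. These values lay above all arrays of the other lines, the highest of which read 1.42 (ttg2). The mean over 6 of 6 stele markers was 5.93 to 6.54 on these arrays and 5.29 to 5.84 on the 21 others. The mean over 6 of 6 ground tissue markers was 4.60 to 5.14, against 3.45 to 4.80. Of these 12 markers, CASP1, MYB36, APL and XCP1 were called higher against ttg2, and EN7 and APL against cpc. Among all genes 4.03% were called higher and 6.16% lower against ttg2, and 3.79% higher and 5.3% lower against cpc. The 6 lateral root cap markers averaged 9.50 ± 0.12, against line means of 9.26 to 10.06. Of these, FEZ was called lower against cpc (-1.99, adjusted p = 0.0259) and 0 were called against ttg2. The lateral root cap markers were split against cpc. SMB (-0.34), BRN1 (-0.73) and BRN2 (-0.29) lay below 0 like FEZ, and BFN1 (0.58) and PASPA3 (0.16) above it. The 6 hair cell markers averaged 9.37 ± 0.98, against 9.42 to 11.12. Of these, EXPA18 was called lower against ttg2 (-1.76, adjusted p = 0.0274) and 0 were called against cpc. The hair cell markers too were split against cpc. RHD6 (0.80), COBL9 (0.82) and RSL4 (0.37) lay above 0, and EXPA7 (-0.96), EXPA18 (-0.73) and PRP3 (-0.55) below it. The mean over 4 of 4 root meristem markers, PLT1, PLT2, PLT3 and BBM, was 6.23 ± 0.27, beside 6.22 ± 0.34 in wer and 7.30 ± 0.27 in egl3. The 5 epidermis markers averaged 9.39 ± 0.31, within the range of the other lines (8.61 to 9.54), but they moved in opposite directions. All 5 were called over 8 lines, against 27% of all genes. WER (-0.83, adjusted p = 0.0395) and TTG1 (-0.94, adjusted p = 0.0153) were called lower against cpc and MYB23 (1.55, adjusted p = 0.0176) higher, and against ttg2 TTG1 was called lower (-0.85) and MYB23 higher (1.46). The part of these differences in the low cell cycle values was not tested. A number in the sample descriptions was higher for these arrays than for any other array that had one. It was missing for array 3 of cpc and array 3 of wer, and what it stands for is not given.

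Among the D cyclins, which link growth signals to CDKA in G1, both measured D3 members were low in the arrays labelled cpc ttg2. CYCD3;1 (AT4G34160_at) read 8.32, 8.57 and 8.39 on the arrays labelled cpc ttg2, 9.87, 9.58 and 9.31 in cpc and 9.46, 9.44 and 8.96 in ttg2. The wer arrays read 9.18, 8.68 and 8.95, those of gl3 9.20, 9.04 and 8.93, those of egl3 9.55, 9.18 and 9.14, those of myb23 9.08, 9.33 and 8.98 and those of try 9.43, 9.58 and 9.49. The 3 arrays labelled cpc ttg2 lay below all 21 others, the lowest of which was array 2 of wer. Its mean was 8.43 ± 0.13 on these arrays and 9.58 ± 0.28 in cpc, a difference of -1.16 (SE 0.195, adjusted p = 0.00176). It was called lower in 6 of the 7 pairs with the other lines, and its call over 8 lines (adjusted p = 0.0044) held in all 29 alternative analyses, which included leaving out each array in turn. CYCD3;3 (AT3G50070_at) read 7.88, 7.70 and 7.91 on the arrays labelled cpc ttg2, 9.36, 8.80 and 8.77 in cpc and 8.74, 8.45 and 9.04 in ttg2. In wer the arrays read 8.04, 8.66 and 8.66, in gl3 8.91, 9.57 and 8.48, in egl3 9.02, 8.59 and 9.73, in myb23 9.07, 9.44 and 8.77 and in try 8.34, 9.52 and 9.10. These 3 arrays too were the lowest of the 24. The difference from cpc was -1.14 (SE 0.336, adjusted p = 0.0387), and the test over 8 lines gave an adjusted p of 0.0541.

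The other D cyclins were not called over 8 lines. CYCD2;1 (AT2G22490_at), which is known to respond to sucrose, had line means from 5.81 (gl3) to 6.82 (try), CYCD4;1 (AT5G65420_at), known from lateral root formation, from 4.91 (cpc ttg2) to 5.62 (try), and CYCD1;1 (AT1G70210_at) from 3.19 (myb23) to 4.08 (cpc). The adjusted p-values over 8 lines were 0.158, 0.613 and 0.635. The line means of the last lay below the lower quartile of all values, so its presence is not claimed. CYCD2;1 was called lower in 1 pair, against try.

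The A3 cyclins, which act from late G1 into S phase, were both called lower against cpc on the arrays labelled cpc ttg2. CYCA3;1 (AT5G43080_at) read 4.88, 4.39 and 5.22 on the arrays labelled cpc ttg2, 6.06, 6.44 and 6.93 in cpc and 4.93, 5.999 and 6.08 in ttg2. Its values were 5.71, 5.51 and 5.84 in wer, 5.24, 6.40 and 6.25 in gl3, 6.14, 5.12 and 6.48 in egl3, 5.76, 5.60 and 5.45 in myb23 and 5.68, 6.65 and 6.13 in try. The arrays labelled cpc ttg2 lay below the 3 of cpc, wer, gl3, myb23 and try but overlapped ttg2 and egl3. The difference from cpc was -1.65 (SE 0.383, adjusted p = 0.0135), from a cpc mean that was the highest of the 8, and the test over 8 lines did not call it (adjusted p = 0.0664). CYCA3;2 (AT1G47210_at) read 4.46, 5.16 and 5.80 on the arrays labelled cpc ttg2, 6.85, 6.56 and 6.82 in cpc and 6.16, 6.45 and 6.82 in ttg2. For the other lines they were 6.63, 6.72 and 8.04 in wer, 6.31, 6.74 and 5.01 in gl3, 7.63, 7.22 and 7.25 in egl3, 6.96, 7.66 and 7.38 in myb23 and 6.01, 6.98 and 7.45 in try. Array 3 of gl3 was as low as the arrays labelled cpc ttg2, and array 3 of wer was the highest of all. The difference from cpc was -1.60 (SE 0.447, adjusted p = 0.0314). The call over 8 lines (adjusted p = 0.00945) held in all 29 alternative analyses.

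MCM proteins 2 to 7 form the helicase that is loaded at replication origins and opens DNA in S phase. All 5 measured subunits had their lowest line mean in the arrays labelled cpc ttg2. MCM7 (AT4G02060_at) read 7.63, 7.25 and 6.85 on the arrays labelled cpc ttg2, 9.29, 8.96 and 7.91 in cpc and 8.58, 8.13 and 8.55 in ttg2. The wer arrays read 8.63, 9.14 and 8.79, those of gl3 8.95, 10.08 and 9.45, those of egl3 9.17, 8.87 and 9.44, those of myb23 9.45, 9.35 and 9.26 and those of try 8.47, 9.86 and 9.61. All 3 arrays labelled cpc ttg2 lay below the other 21, and array 2 of gl3 was the highest. The means were 7.24 ± 0.39 and, in gl3, 9.49 ± 0.57. MCM7 was called lower in all 7 pairs, with a difference of -1.48 from cpc (SE 0.366, 2.78-fold, adjusted p = 0.0188) and -1.18 from ttg2. MCM5 (AT2G07690_at) read 7.10, 6.76 and 7.49 on the arrays labelled cpc ttg2, 8.31, 8.24 and 7.73 in cpc and 7.84, 8.09 and 8.74 in ttg2. In wer the arrays read 7.69, 8.16 and 8.74, in gl3 7.84, 9.14 and 8.25, in egl3 8.74, 8.78 and 8.97, in myb23 8.84, 8.84 and 8.55 and in try 7.75, 9.28 and 8.71. The arrays labelled cpc ttg2 again lay below the rest, and those of the other lines overlapped widely. MCM5 was called over 8 lines (adjusted p = 0.0265) and in 5 of the 7 pairs, but not against cpc (difference -0.98, adjusted p = 0.102) or ttg2 (difference -1.11, adjusted p = 0.0602).

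MCM2 (AT1G44900_at) had line means from 6.72 (cpc ttg2) to 8.48 (egl3), MCM3 (AT5G46280_at) from 8.16 (cpc ttg2) to 9.53 (egl3) and MCM4 (AT2G16440_at) from 7.82 (cpc ttg2) to 9.13 (egl3). Each of these 3 was called lower in 4 of the 7 pairs, against egl3, gl3, myb23 and try, and none over 8 lines (adjusted p = 0.0537, 0.099 and 0.114). With the arrays labelled cpc ttg2 left aside, cpc held the lowest mean of MCM2, MCM3, MCM4 and MCM5, and egl3 the highest. Array 3 of cpc, which stood apart, was the lowest of its line for each of these 4.

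PCNA encircles DNA and holds the polymerase on it, and Arabidopsis has a pair of PCNA genes. PCNA1 (AT1G07370_at) read 8.06, 7.55 and 8.27 on the arrays labelled cpc ttg2, 9.54, 9.14 and 8.77 in cpc and 8.92, 8.92 and 9.53 in ttg2. Its values were 9.15, 8.93 and 10.03 in wer, 8.55, 9.35 and 8.77 in gl3, 10.17, 8.56 and 9.34 in egl3, 9.62, 9.39 and 9.44 in myb23 and 8.29, 9.43 and 9.43 in try. The 3 arrays labelled cpc ttg2 were the lowest of the 24, though array 1 of try (8.29) lay just above them. PCNA2 (AT2G29570_at) read 8.39, 8.13 and 7.76 on the arrays labelled cpc ttg2, 9.76, 9.65 and 8.51 in cpc and 8.91, 9.03 and 9.44 in ttg2. For the other lines they were 9.25, 9.47 and 9.82 in wer, 9.45, 9.82 and 9.43 in gl3, 10.33, 9.80 and 9.80 in egl3, 9.81, 9.54 and 9.55 in myb23 and 8.25, 9.61 and 9.59 in try. Here array 1 of try lay among the arrays labelled cpc ttg2, and the other arrays were higher. PCNA2 differed from cpc by -1.21 (SE 0.342, adjusted p = 0.033) and was called lower in 6 pairs, PCNA1 in 4. Over 8 lines PCNA2 was called (adjusted p = 0.0119) and PCNA1 was not (adjusted p = 0.0757). Over the other 7 lines the PCNA1 means spanned only 0.59.

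The A-type kinase acts throughout the cycle with D, A and B cyclins. CDKA;1 (AT3G48750_at) read 8.19, 8.38 and 7.64 on the arrays labelled cpc ttg2, 8.20, 8.24 and 8.60 in cpc and 8.19, 8.31 and 9.002 in ttg2. The wer arrays read 8.76, 8.58 and 9.39, those of gl3 8.19, 8.35 and 7.45, those of egl3 9.25, 8.94 and 8.97, those of myb23 8.54, 8.86 and 8.83 and those of try 8.42, 8.90 and 8.99. Its lowest array was the third of gl3, not one labelled cpc ttg2, and its order of line means ran from gl3 (7.995 ± 0.48) to egl3 (9.05 ± 0.17). The difference of gl3 from egl3 was -1.06 with arrays that did not overlap (SE 0.281, adjusted p = 0.125), which misses the threshold. CDKA;1 was called over 8 lines (adjusted p = 0.0378), a call that held in 15 of 29 alternative analyses.

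The A2 cyclins act in G2 and are known to hold off the endocycle in leaves and roots. CYCA2;1 (AT5G25380_at) read 3.49, 3.14 and 3.54 on the arrays labelled cpc ttg2, 4.50, 3.93 and 3.99 in cpc and 3.91, 4.13 and 4.18 in ttg2. In wer the arrays read 3.20, 3.74 and 3.84, in gl3 4.27, 4.29 and 3.98, in egl3 4.39, 3.39 and 4.66, in myb23 4.56, 5.05 and 5.09 and in try 3.88, 4.82 and 4.95. Most of these values lay near or under the lower quartile of all genes. Array 1 of wer and array 2 of egl3 were as low as the arrays labelled cpc ttg2, and arrays 2 and 3 of myb23 were the highest. The test over 8 lines called it (adjusted p = 0.0171). CYCA2;2 (AT5G11300_at) read 4.89, 4.66 and 4.57 on the arrays labelled cpc ttg2, 6.19, 5.68 and 4.75 in cpc and 5.41, 5.04 and 6.17 in ttg2. Its values were 5.33, 5.68 and 5.21 in wer, 5.53, 6.41 and 5.97 in gl3, 6.20, 5.70 and 6.58 in egl3, 5.50, 6.11 and 5.87 in myb23 and 5.25, 6.83 and 6.64 in try. Array 3 of cpc fell among the arrays labelled cpc ttg2, and the spread within try was the widest. It was not called over 8 lines (adjusted p = 0.0776). CYCA2;3 (AT1G15570_at), with line means from 7.21 (cpc ttg2) to 8.11 (ttg2), and CYCA2;4 (AT1G80370_at), from 8.15 (cpc ttg2) to 9.14 (cpc), were each called lower in 1 of the 7 pairs. In all 4 members wer held the next lowest mean.

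The B cyclins and CYCA1;1 activate CDKs for entry into mitosis and are made in G2 and M phase. Of the 8 measured, 5 were called over 8 lines, against 27% of all genes. Over the 7 lines 0 were called, against 4.55% of all genes, so that 0 of so few genes says little. CYCB3;1 (AT1G16330_at) read 5.29, 4.39 and 3.82 on the arrays labelled cpc ttg2, 6.26, 6.29 and 5.10 in cpc and 5.85, 6.07 and 5.94 in ttg2. For the other lines they were 5.35, 6.14 and 5.58 in wer, 5.84, 6.91 and 7.12 in gl3, 6.42, 5.35 and 7.17 in egl3, 6.67, 6.47 and 6.03 in myb23 and 6.34, 6.98 and 6.85 in try. Its lowest arrays were arrays 2 and 3 labelled cpc ttg2, while array 1 overlapped array 3 of cpc. The means were 4.50 ± 0.74 and 5.95 ± 0.11 in ttg2, a difference of -1.45 (SE 0.445, adjusted p = 0.0434). CYCB2;2 (AT4G35620_at) read 5.07, 5.10 and 4.97 on the arrays labelled cpc ttg2, 6.57, 6.35 and 5.93 in cpc and 6.33, 5.57 and 6.06 in ttg2. The wer arrays read 5.65, 5.65 and 5.88, those of gl3 5.93, 6.61 and 5.76, those of egl3 6.77, 5.32 and 7.18, those of myb23 6.47, 6.80 and 6.09 and those of try 6.46, 7.01 and 7.30. The 3 arrays labelled cpc ttg2 were close to each other and below the rest, and array 2 of egl3 came next. The difference from cpc was -1.24 (SE 0.364, adjusted p = 0.039).

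CYCA1;1 (AT1G44110_at) had line means from 7.41 (cpc ttg2) to 9.18 (try) and was called lower against cpc (difference -1.44) and against ttg2 (difference -1.24). CYCB1;4 (AT2G26760_at) ranged from 4.42 (cpc ttg2) to 6.61 (try) and CYCB2;1 (AT2G17620_at) from 4.91 (cpc ttg2) to 6.57 (try). The last 2 were called over 8 lines (adjusted p = 0.0439 and 0.0343), as were CYCA1;1 (0.0312), CYCB2;2 (0.0181) and CYCB3;1 (0.0142). CYCB1;1 (AT4G37490_at), whose promoter is a common marker of G2 and M phase cells, ranged from 6.54 (cpc ttg2) to 7.76 (egl3), CYCB1;3 (AT3G11520_at) from 6.68 (cpc ttg2) to 8.61 (try) and CYCB2;4 (AT1G76310_at) from 5.13 (cpc ttg2) to 6.88 (try). None of these last 3 passed (adjusted p = 0.155, 0.106 and 0.0766). Array 3 of cpc was the lowest of its line for all 8 mitotic cyclins, and so was array 2 of egl3.

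The B2 kinases peak from G2 to mitosis. CDKB2;2 (AT1G20930_at) read 5.89, 6.07 and 7.0001 on the arrays labelled cpc ttg2, 8.44, 7.86 and 7.32 in cpc and 7.27, 7.43 and 7.90 in ttg2. In wer the arrays read 7.52, 7.49 and 7.46, in gl3 7.62, 8.07 and 7.58, in egl3 8.36, 7.28 and 8.38, in myb23 7.70, 8.18 and 7.73 and in try 7.65, 8.73 and 8.68. All arrays labelled cpc ttg2 lay below the other 21, and the 3 wer arrays were nearly equal. Their mean of 6.32 ± 0.59 differed from cpc by -1.55 (SE 0.36, 2.94-fold, adjusted p = 0.0131) and from ttg2 by -1.22 (adjusted p = 0.0377). This gene and MCM7 were the 2 members called lower in all 7 pairs, which share the arrays labelled cpc ttg2. CDKB2;1 (AT1G76540_at) read 6.88, 7.24 and 6.33 on the arrays labelled cpc ttg2, 8.56, 7.90 and 6.65 in cpc and 7.51, 7.48 and 7.88 in ttg2. Its values were 7.58, 7.62 and 7.15 in wer, 7.66, 8.20 and 7.74 in gl3, 8.70, 6.97 and 8.50 in egl3, 7.90, 8.05 and 7.75 in myb23 and 7.60, 8.45 and 8.38 in try. Its arrays labelled cpc ttg2 overlapped cpc, wer and egl3, and its spread in cpc and egl3 was the widest. The test over 8 lines called the former (adjusted p = 0.0099) and not the latter (adjusted p = 0.22).

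KNOLLE (AT1G08560_at), the syntaxin of the cell plate at cytokinesis, read 8.41, 8.68 and 8.61 on the arrays labelled cpc ttg2, 9.99, 9.65 and 9.49 in cpc and 9.57, 9.55 and 9.83 in ttg2. For the other lines they were 8.99, 9.04 and 9.43 in wer, 8.94, 9.58 and 8.53 in gl3, 10.22, 8.69 and 9.75 in egl3, 9.96, 10.05 and 9.74 in myb23 and 9.48, 10.23 and 10.47 in try. Array 3 of gl3 lay among the arrays labelled cpc ttg2, array 2 of egl3 just above them, and arrays 2 and 3 of try were the highest. KNOLLE differed by -1.14 from cpc (SE 0.326, adjusted p = 0.0342) and by -1.08 from ttg2 (SE 0.326, adjusted p = 0.0409), and the test over 8 lines gave an adjusted p of 0.0183.

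**Figure D2:**
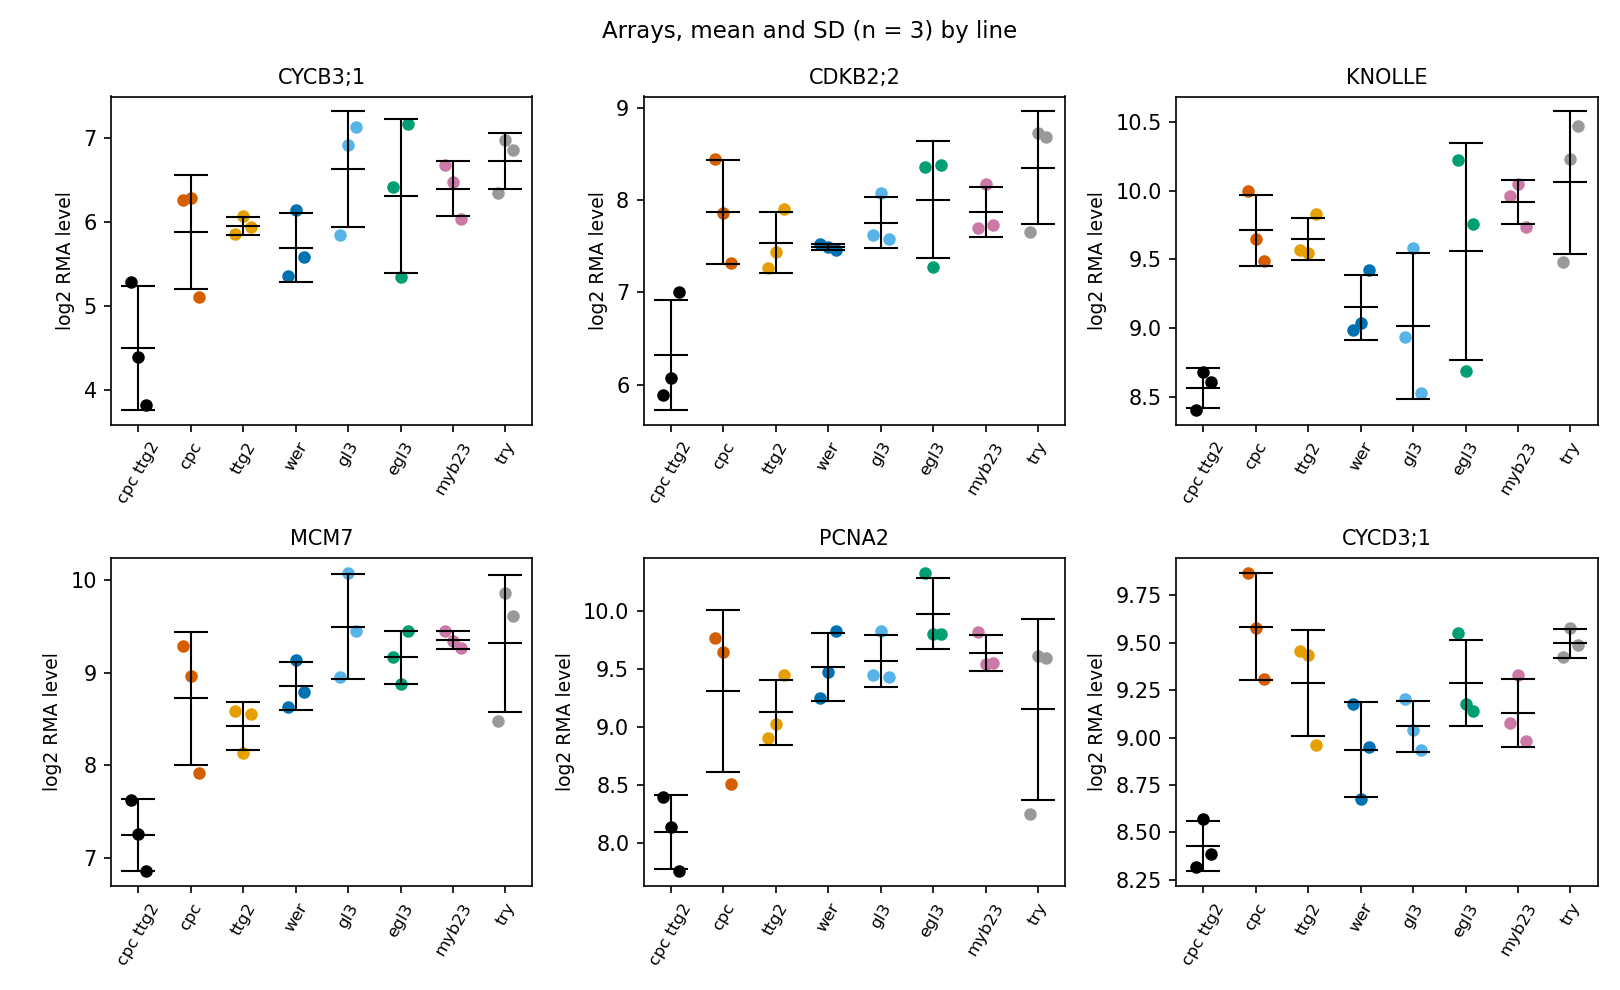
Log2 RMA level on each array (points), with mean and SD over 3 arrays (bars), of 6 members by line. The 3 arrays labelled cpc ttg2 lie below every other array for CDKB2;2, MCM7 and CYCD3;1, while 1 array or more of other lines reaches them for CYCB3;1, KNOLLE and PCNA2.

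Of the 3 inhibitors, KRP1 and KRP2 were called over 8 lines, with higher levels on the arrays labelled cpc ttg2 than in most lines. KRP1 (AT2G23430_at), also known as ICK1, which binds CDKA and D cyclins, read 8.70, 8.65 and 8.59 on the arrays labelled cpc ttg2, 7.25, 7.68 and 8.49 in cpc and 7.56, 8.09 and 7.10 in ttg2. The wer arrays read 6.59, 6.54 and 6.64, those of gl3 7.65, 6.999 and 7.10, those of egl3 6.78, 6.63 and 6.35, those of myb23 6.75, 6.63 and 7.10 and those of try 7.41, 6.73 and 7.10. The 3 arrays labelled cpc ttg2 lay above all 21 others, with array 3 of cpc next. Means ran from 6.59 ± 0.22 in egl3 and 6.59 ± 0.05 in wer to 7.81 ± 0.63 in cpc and 8.65 ± 0.06. Against ttg2 the arrays labelled cpc ttg2 were higher by 1.06 (SE 0.286, adjusted p = 0.0242), and against cpc by 0.84 (adjusted p = 0.0702), which was not called. The test over 8 lines gave an adjusted p of 0.00043 and that over 7 lines 0.0428. KRP2 (AT3G50630_at), or ICK2, known to hold back the start of lateral roots, read 7.69, 9.03 and 8.62 on the arrays labelled cpc ttg2, 8.71, 8.27 and 8.92 in cpc and 7.80, 7.77 and 6.88 in ttg2. In wer the arrays read 8.55, 7.39 and 7.48, in gl3 7.42, 7.33 and 6.47, in egl3 6.88, 6.02 and 5.85, in myb23 7.21, 6.99 and 6.95 and in try 7.41, 6.55 and 6.79. Here cpc was as high as the arrays labelled cpc ttg2, and arrays 2 and 3 of egl3 were the lowest of the 24.

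The test called KRP2 over 8 lines (adjusted p = 0.00209) and over 7 (adjusted p = 0.0138), and its means ran from 6.25 ± 0.55 in egl3 to 8.63 ± 0.33 in cpc. The difference of cpc from egl3 was 2.38 (SE 0.393, 5.2-fold, adjusted p = 0.00145), and that from try was 1.71 (adjusted p = 0.0213). KRP1 was also higher in cpc than in egl3, by 1.22 (SE 0.286, adjusted p = 0.0246). Among all genes 1.41% were called higher in cpc than in egl3 and 1.5% higher in cpc than in try. Without array 3 of cpc the call of KRP2 over 7 lines was lost, at an adjusted p of 0.0546, and that of KRP1 over 7 lines held in 7 of 26 alternative analyses. KRP3 (AT5G48820_at) had line means from 6.88 (cpc ttg2) to 7.59 (egl3), lowest in the arrays labelled cpc ttg2, and was not called (adjusted p over 8 lines 0.675).

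**Figure D3:**
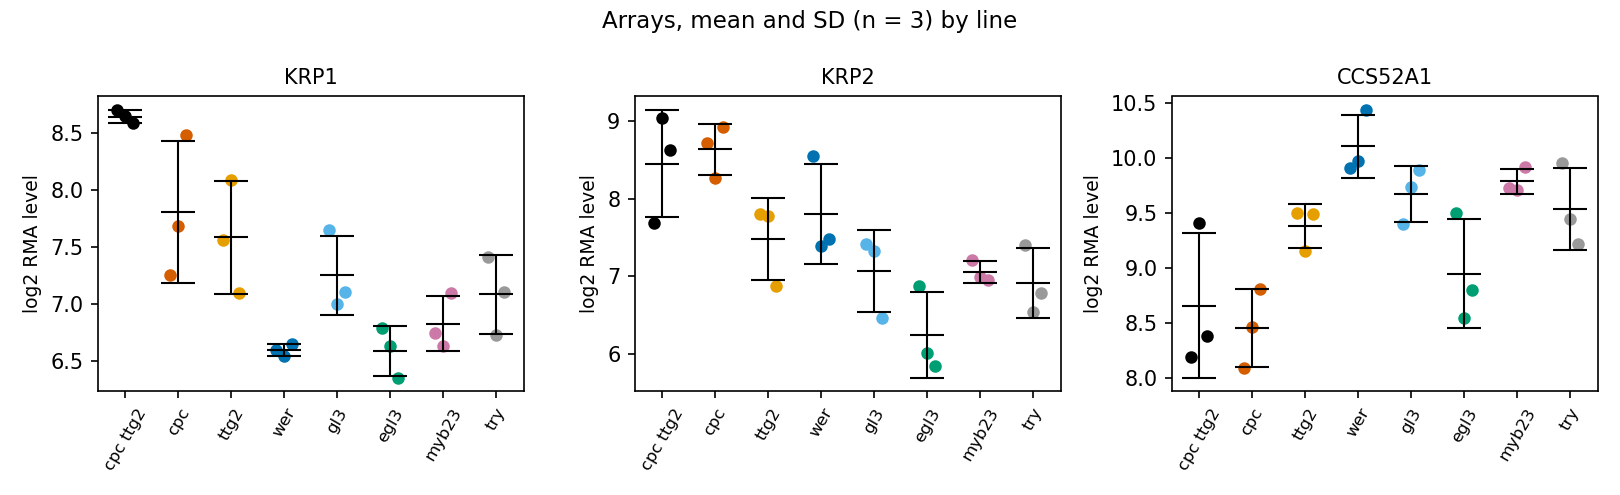
Log2 RMA level by line of the CDK inhibitors KRP1 and KRP2 and of CCS52A1, an activator of the anaphase-promoting complex, with points for arrays and bars for mean and SD over 3 arrays. KRP1 is highest on the arrays labelled cpc ttg2, KRP2 on these and in cpc, and CCS52A1 is lowest in cpc and on the arrays labelled cpc ttg2.

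The 16 calls over 8 lines were not equally firm. Of 29 alternative analyses, those of KRP1, KRP2, CYCA3;2, CYCD3;1 and MCM7 held in all, that of PCNA2 in 28 and that of CDKB2;2 in 27. CYCA2;1 was called in 27 of 28. CYCB2;2, CYCB3;1 and KNOLLE were called in 26, MCM5 in 25, CYCA1;1 in 22, CYCB2;1 in 20, CDKA;1 in 15 and CYCB1;4 in 9. PCNA2 was lost without array 3 labelled cpc ttg2 (adjusted p = 0.0701) and CYCA2;1 without array 2 (adjusted p = 0.0509). The calls of CYCB2;2, CYCB3;1, CDKB2;2, MCM5 and KNOLLE were each lost without 1 or another of the arrays labelled cpc ttg2, with a highest adjusted p of 0.0639, 0.0827, 0.0594, 0.124 and 0.0549.

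The arrays labelled as the double mutant were compared with both of its single mutants. Against cpc, 10 members were called lower on the arrays labelled cpc ttg2 and 0 higher, where 5.3% of all genes were called lower and 3.79% higher. The 10 were CYCB2;2, CYCA1;1, both A3 cyclins, the 2 D3 cyclins, CDKB2;2, MCM7, PCNA2 and KNOLLE, with differences from -1.14 (KNOLLE) to -1.65 (CYCA3;1). In all, 32 of the 33 differences were below 0. The median was -1.14 over the 11 mitotic genes and -0.98 over the 7 S phase genes, beside 0.03 over all genes. These counts rest on few arrays. Without array 2 labelled cpc ttg2 1 member was called, without array 1 or 2 of cpc 2 and 3, without array 3 labelled cpc ttg2 4, and without array 3 of cpc 16. The calls held in 11 of 12 alternatives for CYCD3;1, 10 for CYCA3;1, 9 for CDKB2;2, 7 for CYCA3;2, MCM7 and PCNA2, 6 for CYCA1;1 and 4 for CYCB2;2, CYCD3;3 and KNOLLE. Those of CYCB2;2, CYCA1;1, CYCD3;3 and KNOLLE were lost without the arrays that stood apart, which belong to this comparison. At an unadjusted p under 0.05 there were 20 (60.6%, against 25% of all genes), and a fit of these 2 lines alone called 0.

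Against ttg2, 7 members were called lower and 1, KRP1, higher, where 6.16% of all genes were called lower and 4.03% higher. The 7 were CYCB1;4 (-1.53), CYCB3;1 (-1.45), CYCA1;1 (-1.24), CYCD3;1 (-0.86), CDKB2;2 (-1.22), MCM7 (-1.18) and KNOLLE (-1.08). The mitotic median was -1.08 and the S phase median -1.03, beside 0.01 over all genes. All 11 mitotic and all 7 S phase differences were below 0 in both comparisons, which share the arrays labelled cpc ttg2. With 1 of the 6 arrays left out between 1 and 4 members were called: 4, 1 and 3 without array 1, 2 or 3 labelled cpc ttg2, and 1, 2 and 1 without array 1, 2 or 3 of ttg2. The call of CYCD3;1 held in 11 of 12 alternatives, that of KRP1 in 6, those of CDKB2;2, MCM7 and KNOLLE in 4, those of CYCB3;1 and CYCA1;1 in 3 and that of CYCB1;4 in 2. CYCD3;1 had a highest adjusted p of 0.098 against cpc and 0.0642 against ttg2.

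The calls moved with the scaling of the arrays. With each array centred on its own median, the median over all genes shifted to 0.23 against cpc and 0.24 against ttg2. The split of all called genes against cpc then went from 813 higher and 1137 lower to 1508 and 838, and against ttg2 from 864 and 1321 to 1962 and 925. The member calls went to 1 higher and 9 lower against cpc and to 1 higher and 1 lower against ttg2. The centred medians were -0.95 (mitotic) and -0.79 (S phase) against cpc, and -0.85 and -0.80 against ttg2. All 18 mitotic and S phase genes stayed below 0 in both comparisons, as deposited, centred and after quantile normalisation.

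**Figure D4:**
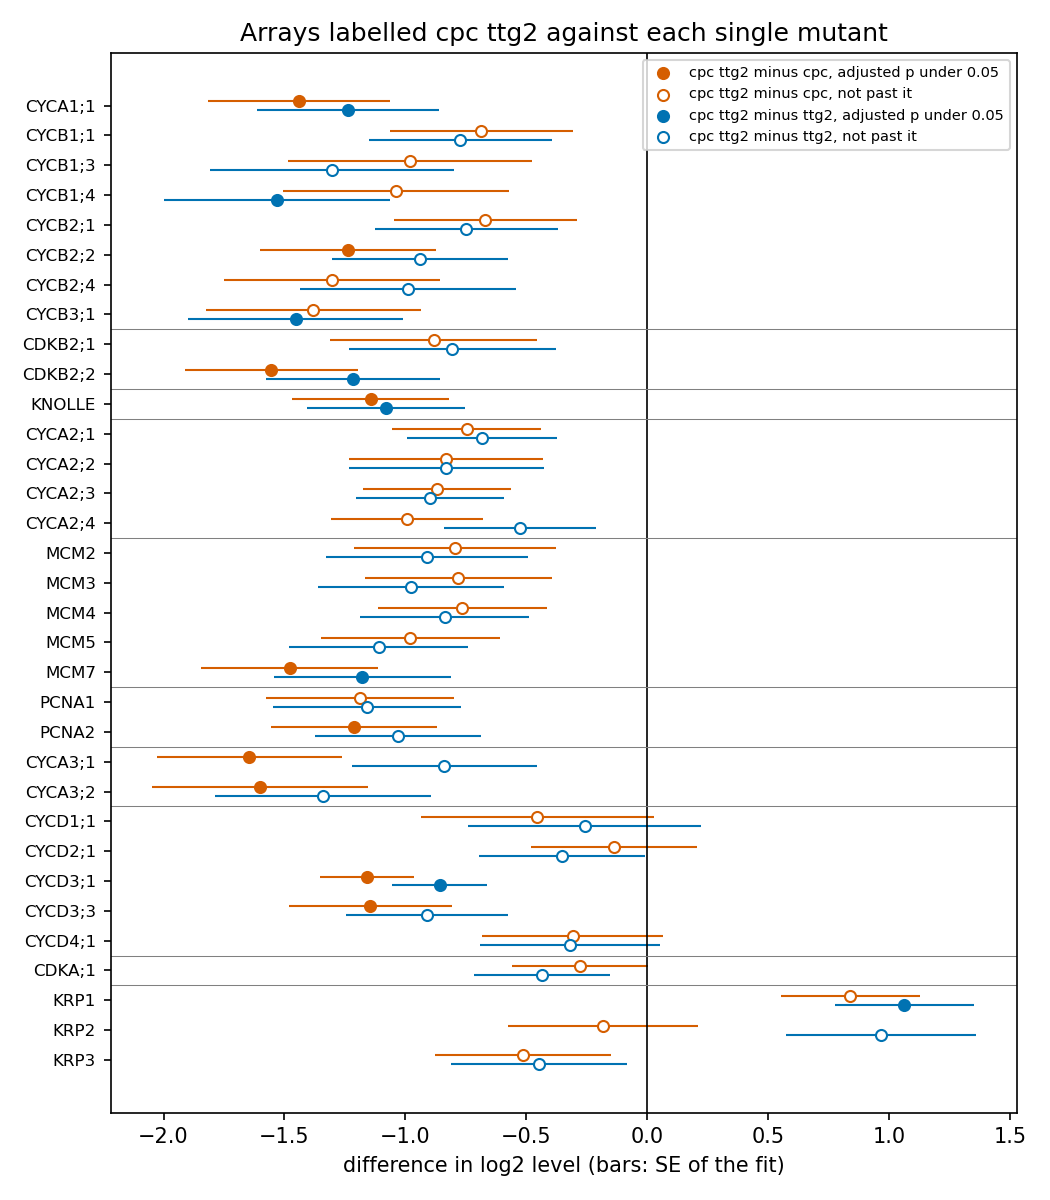
Log2 difference of the arrays labelled cpc ttg2 from cpc (orange) and from ttg2 (blue) for the 33 measured genes, with bars for the SE of the linear model and filled points where the adjusted p was under 0.05. All mitotic and S phase points lie below 0, KRP1 lies above 0 in both, and KRP2 is near 0 against cpc and above 0 against ttg2.

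Over the 7 pairs of the arrays labelled cpc ttg2 with another line, 111 of 231 tests of members were called lower (48.1%) and 10 higher (4.33%), against 13.9% and 9.3% over all genes. The 10 were KRP1 in 6 pairs and KRP2 in 4. The pairs share the arrays labelled cpc ttg2, so they are not separate evidence. The lower calls were 26 against try, 23 against egl3, 20 against myb23, 18 against gl3 and 7 against wer. The matching shares of all genes were 18.8%, 20.4%, 16.7%, 14.9% and 15.2%. The 7 against wer were the 4 S phase genes MCM5, MCM7, PCNA1 and PCNA2, with CYCA3;2, CDKA;1 and the mitotic gene CDKB2;2. The mitotic median against wer was -0.68 and the S phase median -1.08, and against try they were -1.77 and -1.27. The difference between these comparisons was not tested.

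Among the 21 pairs of the other 7 lines, 5 of 693 tests of members were called (0.722%), against 1.12% over all genes, and 17 pairs held none. Left out in turn, array 3 of cpc took the count to 2, array 2 of cpc, array 2 or 3 of try or any of the 3 wer arrays to 3, array 2 of egl3 to 8 and array 1 of try to 10. These 5 were KRP1 and KRP2 in cpc minus egl3, KRP2 in cpc minus try, KRP1 in wer minus cpc and CYCB2;1 in try minus wer. Between wer and cpc, a comparison of a line rich in hair cells with one poor in them, KRP1 was the only member called. It was lower in wer by 1.21 on the log2 scale (-1.21, SE 0.286, adjusted p = 0.0241), where 1.46% of all genes were called lower and 1.6% higher. The KRP1 arrays of these 2 lines did not overlap, as for 18.4% of all genes. The call of KRP1 held in 3 of 12 alternatives, with a highest adjusted p of 0.222. It was lost without any 1 array other than array 1 of cpc. The mean of the 6 hair cell markers was 11.12 ± 0.35 in wer and 9.42 ± 0.77 in cpc. Between gl3 and egl3, bHLH factors with shared roles, 0 members were called by limma, where 0.485% of all genes were higher and 0.173% lower. At an unadjusted p under 0.05 there were 4 (12.1%, against 9.31% of all genes): CDKA;1 and CYCA3;2 (differences -1.06 and -1.35), CYCD2;1 (-0.76) and KRP1 (0.66).

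S phase and mitotic genes were then set against each other on every array, as the mean deviation of the 7 S phase and of the 11 mitotic genes from their own means over the 24 arrays. The 3 arrays labelled cpc ttg2 were low in both, at -1.06, -1.24 and -1.11 for S phase and -1.16, -0.89 and -1.17 for mitosis. No other array was as low in either, the nearest being array 3 of cpc for S phase (-0.72) and array 2 of egl3 for mitosis (-0.71). Across the 24 arrays both means went together (Pearson's r = 0.838, Spearman's rho = 0.828), and across the 21 others r was 0.70 (rho 0.747). Without the 2 arrays farthest from the median S phase value r was 0.778 (rho 0.78). Deviations from the line means, which hold no difference between lines, gave r = 0.779 (rho 0.861). All points share their array's scale and RNA, so these values describe the arrays and carry no test.

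**Figure D5:**
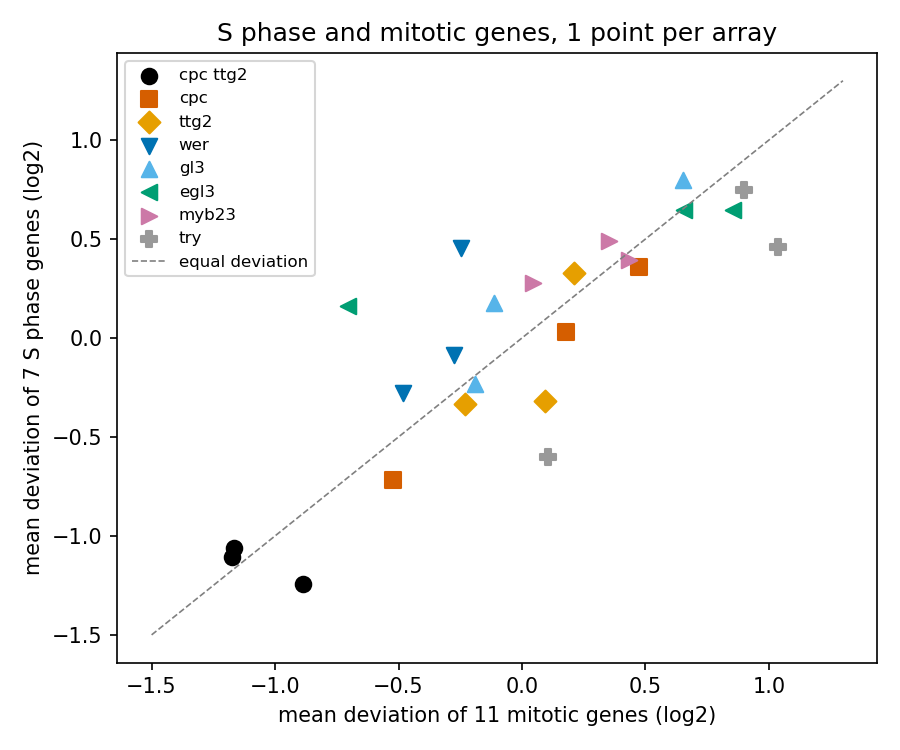
Mean log2 deviation of 7 S phase genes (vertical) against that of 11 mitotic genes (horizontal) on each of the 24 arrays, marked by line, with a dashed line where both are equal. The arrays labelled cpc ttg2 lie at the lower left near the dashed line, the try arrays lie below it, and the wer arrays and array 2 of egl3 lie above it.

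The lines wer and try lay at opposite ends of the balance between both classes. The S phase minus the mitotic mean was 0.21, 0.19 and 0.70 on the wer arrays and -0.71, -0.15 and -0.58 on those of try. The arrays of these 2 lines did not overlap in this balance, while the arrays labelled cpc ttg2 (0.10, -0.35 and 0.07) lay below those of wer and overlapped those of try. As wer and try were picked as the ends of this balance, the gap between them follows in part from that choice. Array 2 of egl3 had the widest gap of all, 0.87, with mitotic genes at -0.71 and S phase genes at 0.16, and its 25S ribosomal RNA control read 11.35, above every other array. Its meristem marker mean of 7.60 was also the highest. The part of either in this gap was not tested.

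By gene, try held the highest mean among the 7 other lines for 10 of the 11 mitotic genes and 0 of the 7 S phase genes, against 15.7% of all genes. The line wer held the lowest for 9 mitotic and 0 S phase genes, against 15.8%. The egl3 line held the highest mean of 5 S phase genes and 1 mitotic gene (19.7% of all genes), and cpc the lowest of 4 S phase genes and 1 mitotic gene (21%). The pair of try and wer was taken up for its extreme values of these same genes. The counts for this pair therefore follow in part from that choice and only describe it. In try minus wer all 11 mitotic differences were above 0, from 0.70 to 1.37 with a median of 1.03, while the 7 S phase differences ran from -0.36 to 0.46 with a median of 0.39, beside 0.03 over all genes. The arrays did not overlap for 11 of the 33 members, against 20.9% of all genes. One member was called, CYCB2;1 (1.37, SE 0.378, adjusted p = 0.0389), against 2.36% of all genes called higher, and 13 members (39.4%) had an unadjusted p under 0.05, against 18% of all genes. After quantile normalisation 0 were called, with medians of 0.92 and 0.35. The meristem marker mean was 6.89 ± 0.62 in try and 6.22 ± 0.34 in wer. Its part was not tested.

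In wer minus cpc the mitotic median was -0.38, with 10 of 11 below 0, and the S phase median 0.13, with 0 of 7 below 0 (1 of 7 after quantile normalisation). No S phase or mitotic gene was called. Without the arrays that stood apart these medians were -0.73 and -0.19, so that the S phase sign turned. In the line medians, taken over genes as the deviation from the gene's mean over arrays, wer stood at -0.34 for mitosis and -0.06 for S phase, and try at 0.71 and 0.29. The arrays labelled cpc ttg2 stood at -1.07 and -1.09, cpc at 0.01 and -0.10, and ttg2 at -0.06 and -0.05. The egl3 line stood at 0.30 and 0.44, gl3 at 0.15 and 0.27, and myb23 at 0.23 and 0.35. Only the arrays labelled cpc ttg2 had all 11 mitotic and all 7 S phase genes below their means.

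Other genes of the pathway were read from 5 lists, of which 48 of 57 genes were measured. The E2F, DP and retinoblastoma list holds the transcription factors that switch on S phase genes and their repressor. Over 8 lines 5 of its 6 measured genes were called, against 27% of all genes, and 0 over 7 lines. As 4.55% of all genes were called over 7 lines, a count of 0 in lists this short says little. Against cpc 4 were lower on the arrays labelled cpc ttg2, E2FA (-1.54), DPA (-1.20), E2FC (-0.89) and DPB (-0.59). Against ttg2 3 were lower, E2FA (-1.91), DPA (-1.42) and E2FC (-0.87). Among all genes 5.3% were called lower against cpc and 6.16% against ttg2. The medians of this list were -0.78 and -0.90, beside 0.03 and 0.01 over all genes. E2FA and DPA form a dimer that activates S phase genes, and E2FC is known as a repressor. The retinoblastoma gene RBR1, which binds E2F factors, was not called over 8 lines (adjusted p = 0.655).

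Of 14 measured genes of replication licensing and DNA synthesis, 8 were called over 8 lines, against 27% of all genes, and 0 over 7. These were the origin recognition subunits ORC2, ORC4 and ORC5, the loading factors CDC6A and CDT1A, the ribonucleotide reductase genes RNR1 and TSO2, and ICU2, the catalytic subunit of DNA polymerase alpha. Against cpc CDT1A (-1.10) and FAS1 (-1.09), the chromatin assembly subunit, were lower, and against ttg2 CDC6A (-1.003). The shares of all genes called lower were 5.3% against cpc and 6.16% against ttg2. The list's medians were -0.80 and -0.93. Of 12 measured genes of the mitotic machinery, 3 were called over 8 lines, MAD2, PATRONUS1 and MYB3R1, a share no higher than the 27% of all genes, and 0 over 7. MAD2, of the spindle checkpoint, was lower against cpc (-1.34) and ttg2 (-1.42), and the kinase AUR2 against cpc (-1.10), beside the same shares of all genes. The medians of this list were -0.61 and -0.56. In try minus wer EDE1, a microtubule protein of mitosis, was higher (1.54, adjusted p = 0.0478). So was PATRONUS1 (1.21, adjusted p = 0.0478), which guards cohesion of sister chromatids. E2FB (1.37) and CCS52B (1.32) were higher as well, where 2.36% of all genes were called higher. As try and wer were picked for extreme values of the mitotic members, these calls may follow in part from that choice and only describe the pair.

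Of 9 measured genes of the endocycle and of other CDK inhibitors, 3 were called over 8 lines, CCS52A1, CCS52B and KRP5, a share close to the 27% of all genes, and CCS52A1 also over 7 (adjusted p = 0.0207). CCS52A1 activates the anaphase-promoting complex, which destroys mitotic cyclins, and promotes the endocycle. It read 9.91, 9.97 and 10.43 in wer and 8.10, 8.46 and 8.81 in cpc. These arrays did not overlap, as for 18.4% of all genes. The difference of wer from cpc was 1.65 (SE 0.303, adjusted p = 0.00472), where 1.6% of all genes were called higher. It was opposite in sign to that of KRP1. The arrays labelled cpc ttg2 read 8.19, 9.41 and 8.38. CCS52B, which is known to peak in mitosis, was lower on these arrays against cpc (-1.08) and ttg2 (-1.27). Of all genes 5.3% and 6.16% were called lower in these 2 comparisons. The list's medians were -0.35 and -0.60. SIM and SMR1, inhibitors of the SIAMESE family, were not called over 8 lines (adjusted p = 0.182 and 0.502).

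Of 7 other measured cyclins of these families, 3 were called over 8 lines, CYCA1;2, CYCD3;2 and CYCD4;2, against 27% of all genes, and 0 over 7. The third D3 gene, CYCD3;2, was lower against cpc (-1.20), as were CYCD3;1 and CYCD3;3. CYCD4;2 was higher, by 1.53 against cpc and 1.62 against ttg2. Of all genes 5.3% were called lower against cpc, and 3.79% and 4.03% were called higher against cpc and ttg2. The medians of this list were -0.27 and -0.72. In wer minus cpc the medians of the lists, in the order given, were 0.07, 0.37, -0.49, -0.08 and -0.19, beside 0.01 over all genes, and CCS52A1 was the 1 gene called. In gl3 minus egl3 they were -0.22, -0.29, -0.01, 0.14 and 0.04, beside -0.02 over all genes, with 0 genes called by limma.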

How the data were processed

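Transcripts of FACS-sorted root epidermis cells were measured on 24 Affymetrix arrays, 3 biological replicates for each of 8 lines, grouped by the labels. The deposited log2 values are the authors' output of RMA, a method named in the submitters' processing notes. Which array, probe sets and software were used is not given in the sources used here. RMA reduces a change shared by most transcripts and compresses differences between dim genes. Detection calls were not used, so no level is claimed as present.

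From these values, limma 3.58.1 (lmFit and eBayes, R 4.3.3) fitted 1 mean for each line to 21440 genes over all 24 arrays, with 64 control entries left out. Moderated F tests compared 8 lines and, in the same fit, the 7 lines without the arrays labelled cpc ttg2. Pairs of lines were tested 2-sided, and p-values were adjusted over all genes by the Benjamini-Hochberg method. A test on simulated data, with independent noise for each gene and set changes, recovered changes of the right sign. It held no array-wide shift and no array that stood apart, so it does not cover these features of the data. The members, lists and tests were chosen with earlier results of these data known. Symbols were matched to RefSeq names (TAIR10.1) by locus code. Values of every array are given for the 2 members of each role with the smallest p over 8 lines and for members called between wer and cpc or gl3 and egl3, and up to 2 called genes per list and direction are named, with others chosen after their values were seen. The labels number replicates 1 to 3 in every line. Same-numbered arrays of wer and cpc deviated together (correlations of 0.442, 0.218 and 0.417), so the numbers may pair these lines, a hint from the data alone. In the other 3 comparisons at least 1 correlation was under 0.1, with 0.231, -0.0895 and 0.58 for the arrays labelled cpc ttg2 and cpc. All 3 were over 0.1 also for egl3 and wer, myb23 and try, and try and ttg2. With the replicate number as a block, wer minus cpc gave 1 called member, as without it. Alternatives were centring, quantile normalisation, a minimum mean of 5, the replicate block, fits of 2 lines, and leaving out the arrays that stood apart or each array in turn.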

Additional observations from a re-analysis of the deposited data

How the results depend on the processing

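Counts of called members changed with the arrays used. Over 8 lines the 16 went to 8 without the 2 arrays that stood apart and from 8 to 22 with 1 array left out, highest without array 2 of egl3. Over 7 lines the 2 went to 1 when centred, after quantile normalisation or with the replicate block, to 0 without the arrays that stood apart, and from 0 to 2 with 1 array left out. For wer minus cpc the 1 went to 0 when centred, after quantile normalisation, without the arrays that stood apart and in the fit of 2 lines, and from 0 to 1 with 1 array left out. Against cpc the 10 of the arrays labelled cpc ttg2 went to 0 in the fit of 2 lines and from 1 to 16 with 1 array left out. Against ttg2 the 8 went to 2 when centred, 5 after quantile normalisation, 4 without the arrays that stood apart, 4 in the fit of 2 lines and from 1 to 4 with 1 array left out. The 5 calls of the 21 other pairs went to 3 without the arrays that stood apart and ran from 2 to 10 with 1 array left out, and the 10 higher and 111 lower calls of the 7 pairs ran from 7 to 11 and from 75 to 133. The replicate block gave 16, 10, 7 and 0 called members over 8 lines, against cpc, against ttg2 and for gl3 minus egl3, and 6 over the 21 pairs. Fewer arrays or genes enter some of these fits, and the cause of other changes was not tested. Among the calls of single members, 536 alternatives kept the call, 207 lost it and 0 changed its direction. The S phase median of wer minus cpc, which has no test, turned from 0.13 to -0.19 without the arrays that stood apart. The calls of CYCA3;2, CYCD3;1, MCM7, KRP1 and KRP2 over 8 lines held in all 29 alternatives. Signal over background is unknown, which limits dim members such as CYCD1;1 and CYCA2;1.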
